A study of Mus musculus with 12 samples.

Results

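The genes described here encode the proteins that take retinoids into a cell, carry and store them there, and break retinoic acid down. They were chosen by symbol in the probe table, as Cyp26a1, Cyp26b1, Cyp26c1, Dhrs3, Rbp4, Stra6, Crabp1, Crabp2 and Lrat. The rule itself used no measured value, but the list was set with earlier results of these data known. Of these 9 genes, 8 were represented on the array, by 11 of its 46632 probes, among 34509 gene symbols. Cyp26c1 had no probe under its symbol or a listed synonym. RNA was measured on 12 Illumina bead arrays, which read a transcript's abundance as the brightness of short probes on beads. The tissue was femoral head cartilage from 21-day-old TS-4/5∆cat mice, which lack the exons for the catalytic domains of the aggrecanases ADAMTS-4 and ADAMTS-5. Every group carried both deletions, untreated explants included, and no wildtype array was analysed here. Explants were left untreated, given 10 ng/mL IL-1α, or given 10 µM retinoic acid, each for 3 days and with 4 arrays. Each treatment had 2 arrays of a line named Donut, all in batch 1, and 2 of a line named Gertrude, all in batch 2, so that line and batch cannot be told apart. The labels give 4 hips per well and name a medium with serum before treatment, whereas the methods of the study describe a medium without serum. The labels do not tie arrays to animals, and the methods of the study name fewer mice per treatment than there are arrays, so some arrays may share an animal. The p-values measure the spread between these arrays, part of which may be technical.

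Retinol circulates bound to retinol-binding protein and enters many cells through the receptor STRA6. Inside the cell it is stored as an ester by LRAT or oxidised to retinaldehyde and then to retinoic acid, the ligand of the RAR nuclear receptors. DHRS3 turns retinaldehyde back into retinol, CRABP1 and CRABP2 carry retinoic acid in the cytosol, and the CYP26 enzymes hydroxylate retinoic acid for disposal. Several of these genes are well-known targets of retinoic acid itself, so that the pathway limits its own signal. In the growing skeleton retinoic acid opposes the chondrocyte programme, and CYP26B1 is known for keeping it low.

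The RefSeq promoters (GRCm38.p6, 250 bases before to 50 after each start) of Cyp26a1 and Cyp26b1 are shown because these breakdown enzymes gave the largest responses to retinoic acid and differ in a known receptor motif. Capitals mark a pair of hexamers in direct repeat with a gap of 5 bases, the arrangement that RAR and its partner RXR are known to bind. The promoter of Cyp26a1 lies at chr19:37697558-37697857 on the plus strand, and that of Cyp26b1 at chr6:84593761-84594060 on the minus strand.
Cyp26a1: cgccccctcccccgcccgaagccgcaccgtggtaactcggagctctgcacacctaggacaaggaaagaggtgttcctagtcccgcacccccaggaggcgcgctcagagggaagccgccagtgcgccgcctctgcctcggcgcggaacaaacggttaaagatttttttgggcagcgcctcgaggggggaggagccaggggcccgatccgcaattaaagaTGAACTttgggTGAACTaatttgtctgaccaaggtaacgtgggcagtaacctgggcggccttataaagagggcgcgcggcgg
Cyp26b1: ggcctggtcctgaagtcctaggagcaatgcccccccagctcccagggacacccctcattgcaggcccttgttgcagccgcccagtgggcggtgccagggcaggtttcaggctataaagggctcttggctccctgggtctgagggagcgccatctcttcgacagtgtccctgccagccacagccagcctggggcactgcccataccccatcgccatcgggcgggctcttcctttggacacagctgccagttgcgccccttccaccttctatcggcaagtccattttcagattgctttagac
The hexamer searched, on both strands, was NGNTCA with A or G as its first base and G or T as its middle N, in direct repeat with a gap of 5 or 2 bases. The repeat in Cyp26a1 reads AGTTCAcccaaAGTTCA on the minus strand and lies at chr19:37697776-37697792, from base -32 to base -16 counted from the start site. It was the only such repeat in 14 promoters of 8 of the 9 genes, and 13 held none. Among all 32851 promoters of this length, 32 (0.0974%) held a repeat with a gap of 5, 88 (0.268%) one with a gap of 2, and 43.7% at least 1 single hexamer. A match describes these letters only, and the lack of one says nothing of sites outside the window.

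On the arrays, 6 probes of 5 genes passed the filter, detection on at least 4 of 12 arrays. These were 2 probes of Cyp26a1 and 1 each of Cyp26b1, Dhrs3, Rbp4 and Stra6. With retinoic acid, 5 of the 6 probes were higher than in untreated cartilage, against 18.2% of all 18200 probes kept, and 1, Rbp4, was lower, against 17.1%. With IL-1α, 1 probe was higher, Cyp26b1, against 15.2%, and 1 was lower, again Rbp4, against 14.1%. Retinoic acid exceeded IL-1α for 5 of 6 probes, where 15.2% of all probes were higher, and was lower for 0 of 6 (0 also at an unadjusted p under 0.05 in limma), where 15.8% were lower. Calls are those of limma at an adjusted p under 0.05 over all kept probes. For the 5 probes that rose, the 4 retinoic acid arrays all lay above the 4 untreated arrays, as for 8.49% of all kept probes, and above the 4 IL-1α arrays, as for 8.32%. Of these 5, 4 probes, all except Cyp26b1, passed the filter mainly or wholly through the retinoic acid arrays, so the count over probes that passed describes them and supports nothing. The median log2 fold change of the 6 probes was 2.47 for retinoic acid against untreated, 2.57 for retinoic acid against IL-1α and -0.02 for IL-1α against untreated, beside medians over all kept probes of 0.02, -0.03 and 0.02. The medians for retinoic acid carry the same limit as the count and include fitted values taken over background levels.

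**Figure D1:**
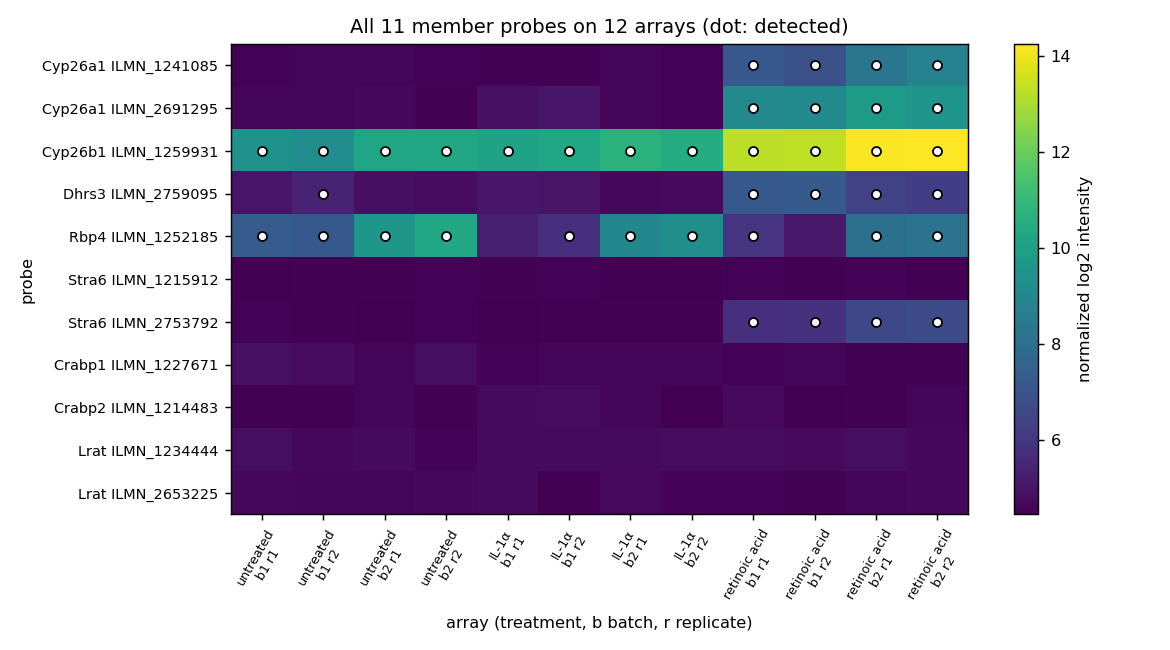
Normalized log2 intensity (colour) of all 11 probes of the 8 measured genes (rows) on the 12 arrays (columns, b for batch and r for replicate), with a dot where the probe was detected at a detection p under 0.05. The Cyp26a1 probes and 1 Stra6 probe carry dots on retinoic acid arrays only, Cyp26b1 on all 12, and Crabp1, Crabp2, Lrat and the other Stra6 probe on none.

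Some features of the arrays bear on these values. Between 13786 and 19485 probes were detected per array, and the lowest detected log2 level of an array was between 4.86 and 5.48, so levels below that range carry no order. Of 11 chondrocyte marker genes, 9 had a kept probe, which fits the labelled tissue, while the probes of Matn3 and Cnmd failed the filter. All 17 kept chondrocyte probes fell with retinoic acid and 11 fell with IL-1α. The summed level of the list was 99831 to 128299 untreated, 66197 to 84159 with IL-1α and 22601 to 33173 with retinoic acid. Erythroid genes were bright too, and 3 of 3 had a kept probe. Their summed level was 76079 to 118187 untreated, 101587 to 120178 with IL-1α and 71477 to 122600 with retinoic acid. The RNA was thus not of chondrocytes alone. In whole tissue, fewer cells of a type and less RNA per cell cannot be told apart, and the part of such shifts in the results below was not tested.

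Cyp26a1 encodes the CYP26 enzyme best known as an early target of retinoic acid, and both its probes were detected with retinoic acid and nowhere else. Probe ILMN_2691295 had log2 levels of 4.64, 4.61, 4.65 and 4.53 on the untreated arrays (batch 1 first, here and throughout) and 4.91, 5.03, 4.62 and 4.53 with IL-1α, none of them detected. With retinoic acid the batch 1 arrays read 9.06 and 9.14 and the batch 2 arrays 9.79 and 9.55 (9.39 ± 0.34, SD, n = 4). All 4 retinoic acid arrays thus lay above all 8 others, and on the deposited linear scale the same arrays read 424 and 354 (batch 1) and 1381 and 1279 (batch 2). Since the other groups gave background only, the change is a bound, at least 19.2-fold over untreated (adjusted p = 6.18e-10, limma) and at least 17.5-fold over IL-1α (adjusted p = 8.83e-10). The bound sets the retinoic acid mean against the lowest level that counted as detected on each array of the dimmer group, or the probe's own level where that was higher. Bounds, here and below, average over both batches. They are smaller in the batch with the lower retinoic acid levels, here batch 1. Adjusted p-values printed beside a bound, here and below, belong to the fitted change and not to the bound.

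The second Cyp26a1 probe, ILMN_1241085, was also undetected on the 8 arrays without retinoic acid, where it read 4.50 to 4.63. With retinoic acid its levels were 7.15 and 6.86 on batch 1 arrays, then 8.30 and 8.81 on batch 2 arrays (7.78 ± 0.93, SD, n = 4). Averaged over batches, it was at least 6.31-fold over untreated (adjusted p = 1.13e-06, limma) and at least 5.76-fold over IL-1α (adjusted p = 1.17e-06). Both bounds are smaller in batch 1, where the retinoic acid levels were lower. Both probes thus went the same way. For each, the exact permutation test of 4 arrays against 4 gave p = 0.0286 in either comparison, the smallest p this design allows. Both probes passed the filter only through the retinoic acid arrays, so this p and those of limma describe the separation and add no support. Between IL-1α and untreated the fit gave 0.17 (95% interval -0.20 to 0.54) for ILMN_2691295 and -0.02 (-0.61 to 0.56) for ILMN_1241085, both on background levels.

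Cyp26b1, the CYP26 enzyme of the growing skeleton, was the only gene of the set detected on every array. Its log2 levels were 9.44, 9.25, 10.23 and 10.31 untreated and 10.09, 10.29, 10.69 and 10.53 with IL-1α. With retinoic acid it reached 13.28 and 13.30 in the first batch, 14.18 and 14.24 in the other. The retinoic acid arrays stood far above the rest, while the untreated and IL-1α arrays overlapped. On the deposited scale the probe read 373 to 1784 untreated, 938 to 2129 with IL-1α and 7013 to 21631 with retinoic acid. By brightness it ranked 128 and 125 among all probes on the retinoic acid arrays of batch 1, and 2 and 1 on those of batch 2, where it reached the top of the quantile-normalized scale (14.24). That scale gives the brightest probe of every array the same value, so it could not have shown a higher level there.

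Mean levels of Cyp26b1 were 9.81 ± 0.54 untreated, 10.40 ± 0.26 with IL-1α and 13.75 ± 0.53 with retinoic acid (SD, n = 4 each). Retinoic acid raised it by 3.94 on the log2 scale (SE 0.14, 15.4-fold, adjusted p = 6.07e-10, limma) over untreated, by 3.94 within each batch. With arrays scaled to one median instead, which sets no common top, the rise was 4.37 in batch 1 and 3.67 in batch 2. Over IL-1α the difference was 3.35 (SE 0.14, adjusted p = 2.37e-09). IL-1α itself raised it by 0.59 (SE 0.14, 1.51-fold, adjusted p = 0.0066), by 0.85 in batch 1 and 0.34 in batch 2. Fits with no term for batch or replicate, or on batch 2 alone, lost this call (adjusted p = 0.369 and 0.195, limma). A fit with a term for batch only kept it (adjusted p = 0.00255, limma). The exact permutation test over arrays, which leaves batch out, gave p = 0.143.

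**Figure D2:**
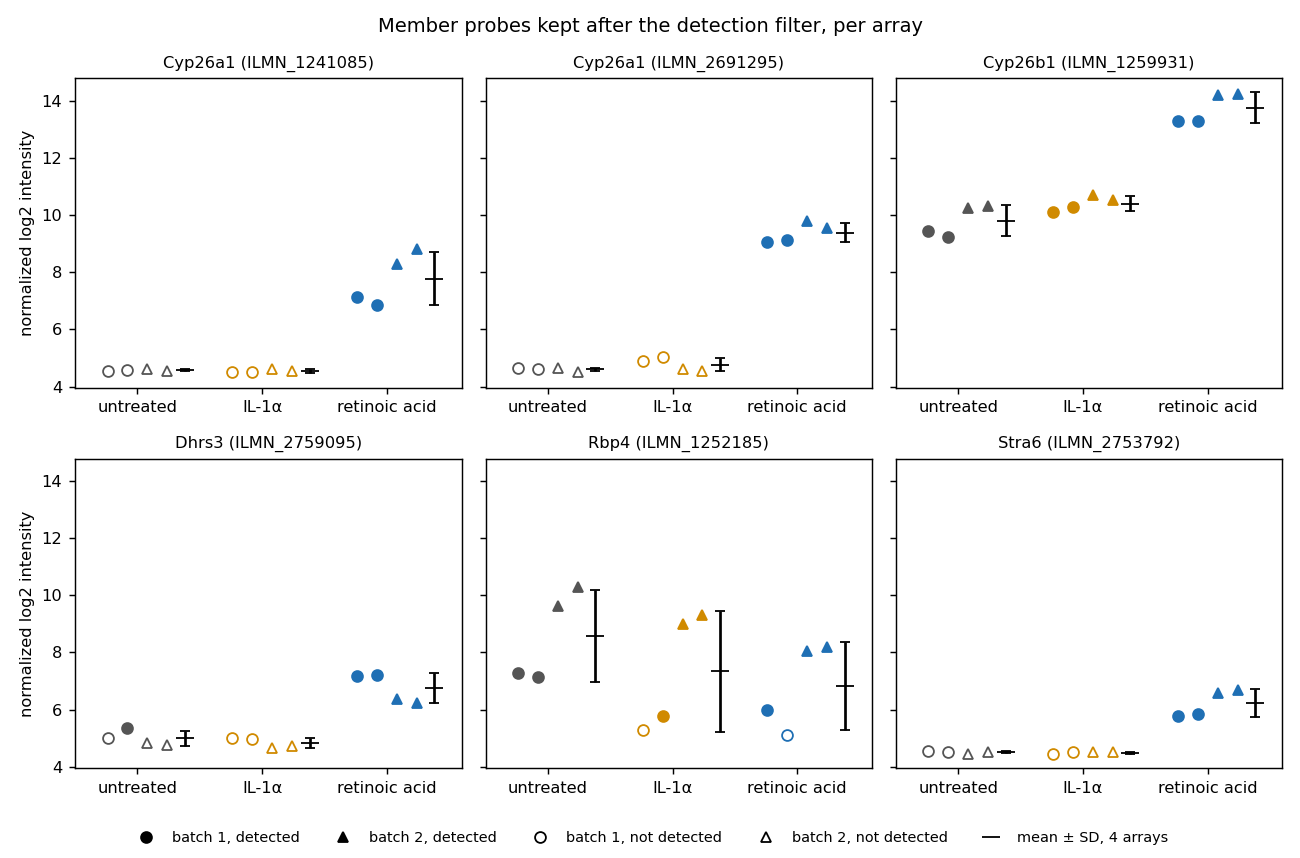
Normalized log2 intensity (vertical axis) of the 6 kept probes on each array, by treatment, with circles for batch 1, triangles for batch 2, open symbols where the probe was not detected, and bars for the mean ± SD of 4 arrays. The retinoic acid arrays lie above all others for both Cyp26a1 probes, Cyp26b1, Dhrs3 and Stra6, whereas Rbp4 separates first by batch and then, within a batch, lies highest in untreated arrays.

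Dhrs3, the enzyme that returns retinaldehyde to retinol, was near background without retinoic acid. Its levels were 5.02, 5.38, 4.85 and 4.78 untreated, of which only the second, in batch 1, was detected, and 5.03, 4.96, 4.67 and 4.71 with IL-1α, with none detected. With retinoic acid the levels were 7.17 and 7.23 (batch 1) and 6.38 and 6.23 (batch 2), above every other array. The rise over untreated was 1.75 (SE 0.14, 3.36-fold, adjusted p = 8.24e-07, limma). Averaged over batches, the level was at least 2.83-fold that of IL-1α (adjusted p = 3.84e-07), with a smaller bound in batch 2. The exact permutation test gave p = 0.0286 for both comparisons. As the probe passed the filter mainly through the retinoic acid arrays, these p-values describe the separation and add no support. With only 1 untreated array detected, the size of the rise over untreated depends on the offset, and an offset of 50 gave 1.11. IL-1α against untreated gave -0.16 (95% interval -0.47 to 0.15, adjusted p = 0.43, limma). On the normalized scale, Dhrs3 alone of the risen probes had a higher level in batch 1 than in batch 2 under retinoic acid. On the deposited linear scale the order was the other way, with 122.5 and 101 (batch 1) and 166 and 167.9 (batch 2). Its normalized effects were 2.00 in batch 1 and 1.49 in batch 2, a difference that did not pass the test (adjusted p = 0.279, limma).

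Stra6, the membrane receptor through which cells take up retinol, had probes that disagreed. Probe ILMN_2753792 was undetected untreated (4.46 to 4.54) and with IL-1α (4.45 to 4.53). It was detected on all 4 retinoic acid arrays, with 5.79 and 5.84 (batch 1) and 6.59 and 6.70 (batch 2). Averaged over batches, that placed it at least 2.15-fold over untreated (adjusted p = 4.37e-06, limma) and at least 1.97-fold over IL-1α (adjusted p = 4.21e-06). The exact permutation test gave p = 0.0286 for both, on a probe that passed the filter only through these arrays. In batch 1 the lowest detected levels were 5.29 on both untreated arrays and 5.48 and 5.45 with IL-1α, so the bound is smaller there. Its detection p in batch 1 was 0.024 and 0.022, and a filter at a detection p under 0.01 dropped the probe. Probe ILMN_1215912 stayed undetected on all 12 arrays, with levels of 4.46 to 4.57. Which transcripts each probe matches was not analysed here.

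Rbp4, the carrier of retinol in blood that liver and fat cells are known to make, was the only member that fell. Its levels were 7.29, 7.14, 9.63 and 10.27 untreated, 5.28, 5.77, 8.99 and 9.32 with IL-1α, and 5.98, 5.11, 8.05 and 8.20 with retinoic acid. Batch 2 lay above batch 1 in every group, and the groups overlapped when batches were pooled, with exact permutation p-values of 0.171 for retinoic acid and 0.4 for IL-1α against untreated. Within each batch both treated groups lay below the untreated arrays. The lower values of batch 1 with IL-1α (5.28) and with retinoic acid (5.11) were not detected.

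With the factor for batch and replicate in the fit, Rbp4 changed by -1.75 on the log2 scale with retinoic acid (SE 0.24, 3.36-fold lower, adjusted p = 7.62e-05, limma), with -1.67 in batch 1 and -1.83 in batch 2. With IL-1α the change was -1.24 (SE 0.24, 2.37-fold lower, adjusted p = 0.00181), with -1.69 in batch 1 and -0.80 in batch 2. With no term for batch or replicate neither call passed (adjusted p = 0.445 and 0.713, limma). A fit with a term for batch only kept both (adjusted p = 2.11e-05 and 0.000851, limma). Retinoic acid against IL-1α gave -0.51 (adjusted p = 0.127), but 0.02 in batch 1 and -1.03 in batch 2. That last comparison passed the test once either replicate 1 of retinoic acid in batch 1 (-0.78, adjusted p = 0.017) or replicate 1 of IL-1α in batch 1 (-0.84, adjusted p = 0.00284) was left out.

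Some markers of other cell types fell as Rbp4 did, and others did not. The kept chondrocyte probes, given above, fell as well, all 17 with retinoic acid and 11 with IL-1α. Of all kept probes, 17.1% were lower with retinoic acid and 14.1% with IL-1α, while 18.2% and 15.2% were higher. Of 5 adipocyte genes, Adipoq and Cfd were kept and both fell with each treatment, with log2 changes of -1.08 and -2.13 for retinoic acid and of -1.57 and -1.89 for IL-1α, while Plin1, Fabp4 and Lep were detected on none of the 12 arrays. The summed adipocyte level was 1004 to 1498 untreated, 279 to 547 with IL-1α and 333 to 395 with retinoic acid. Of 4 osteoblast genes 3 had a kept probe, Dmp1 being undetected throughout, and 3 of the 4 kept probes fell with each treatment, the exception being Bglap (-0.13 with retinoic acid and 0.27 with IL-1α). Their summed level was 7520 to 9275 untreated, 1826 to 4016 with IL-1α and 1942 to 2162 with retinoic acid. Probe ILMN_1231074 of the osteoblast factor Sp7 was among the probes nearest to Rbp4 across arrays, with -1.73 for retinoic acid and -1.08 for IL-1α. Of the 3 kept fibroblast and synovium probes 2 fell with retinoic acid and 3 with IL-1α, with a summed level of 387 to 504 untreated, 232 to 332 with IL-1α and 291 to 318 with retinoic acid. Neutrophil probes fell with retinoic acid (5 of 6) and passed in neither direction with IL-1α, and macrophage and osteoclast probes rose with retinoic acid (5 of 7) and, with IL-1α, 3 rose and 1 fell. Endothelial probes passed in neither direction with retinoic acid, and 3 of 5 fell with IL-1α. The 1 kept skeletal muscle probe fell with IL-1α only. Of 12 kept erythroid probes 0 passed with either treatment against untreated. The part of these cell types in the fall of Rbp4 was not tested.

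**Figure D3:**
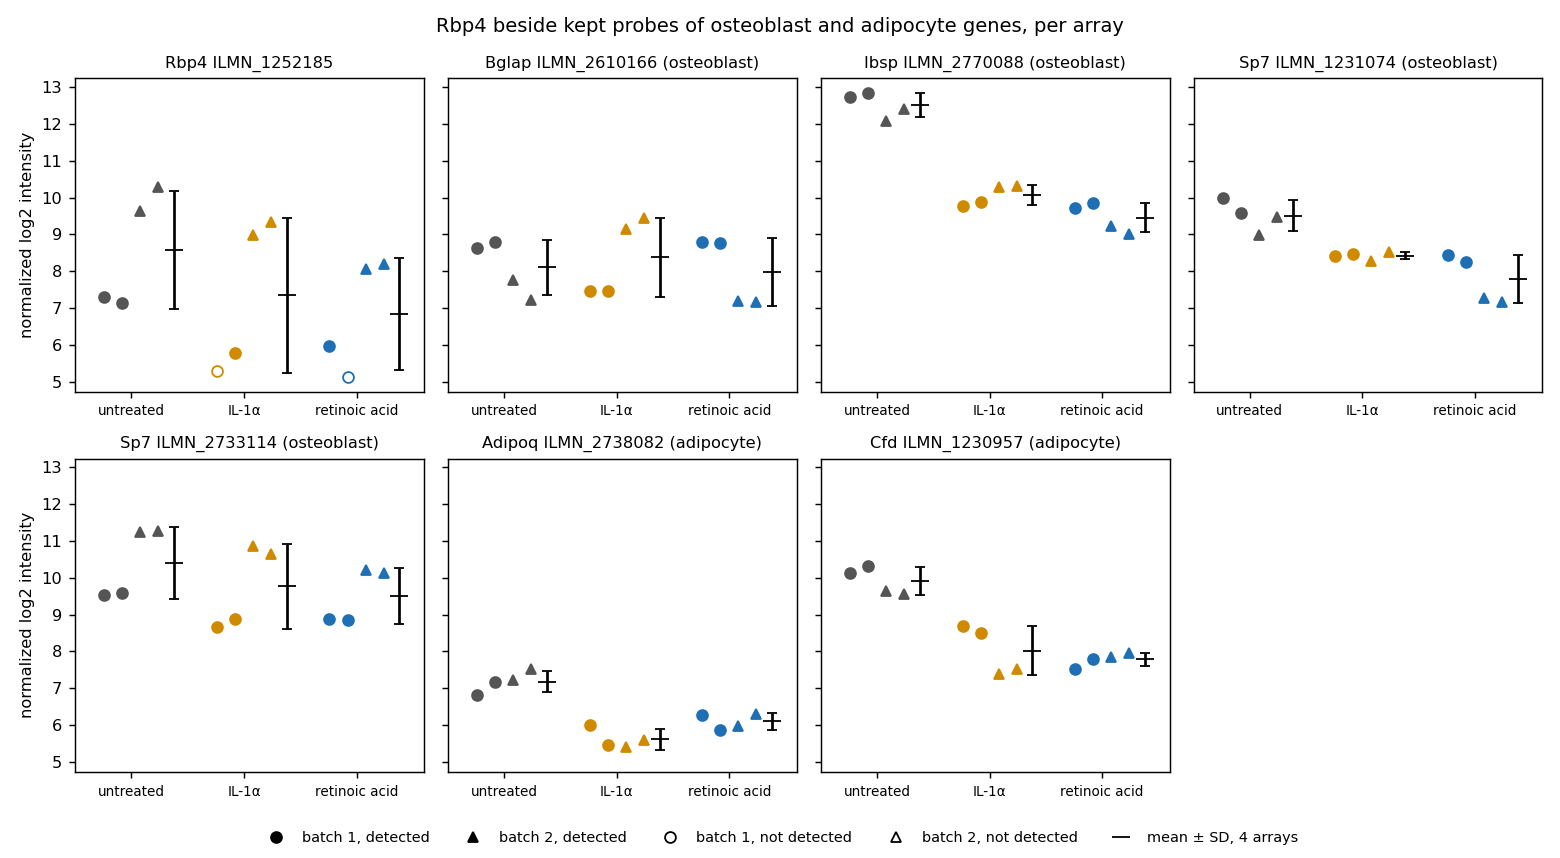
Normalized log2 intensity (vertical axis) of Rbp4 and of the kept probes of osteoblast genes (Bglap, Ibsp, Sp7) and adipocyte genes (Adipoq, Cfd) on each array, by treatment, with circles for batch 1, triangles for batch 2, open symbols where not detected, and bars for the mean ± SD of 4 arrays. Adipoq, Cfd, Ibsp and both Sp7 probes are lower with either treatment, and Rbp4 and Sp7 probe ILMN_2733114 share the higher level of batch 2, which Sp7 probe ILMN_1231074 lacks.

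The remaining members were not detected. Crabp1, the cytosolic carrier of retinoic acid, read 4.50 to 4.88 over the 12 arrays, and Crabp2, which delivers retinoic acid to its receptors, read 4.48 to 4.79. The probes of Lrat, which esterifies retinol for storage, read 4.56 to 4.82 (ILMN_1234444) and 4.53 to 4.73 (ILMN_2653225). None of the 4 probes had a detection p under 0.05 on any array, so a change of these transcripts below the detection level could not be read.

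**Figure D4:**
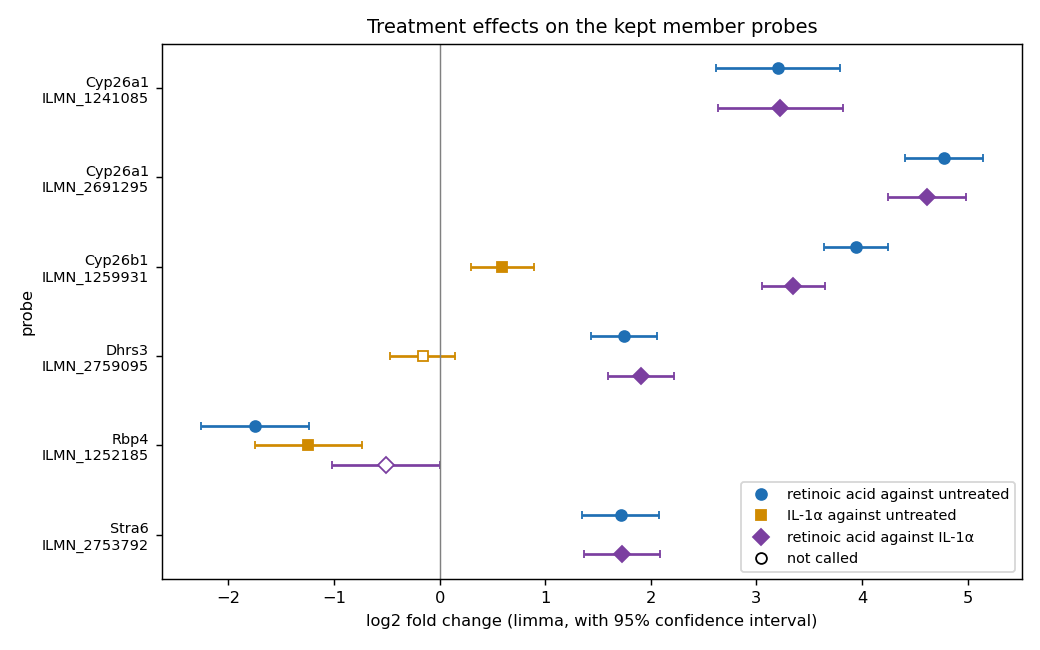
Log2 fold change (horizontal axis) of the 6 kept probes (rows) for retinoic acid against untreated, IL-1α against untreated and retinoic acid against IL-1α, with 95% confidence intervals from limma, filled where the adjusted p was under 0.05. Comparisons in which neither group was detected are left out. The retinoic acid effects run from -1.75 for Rbp4 to 4.78 for Cyp26a1 probe ILMN_2691295, where undetected untreated levels make the fitted value no bound.

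The response to retinoic acid was larger in batch 2 than in batch 1 for some of the probes. Against untreated, 2 of 6 probes differed between batches, where 2.86% of all probes did, and against IL-1α 3 of 6 differed, where 8.76% did. For IL-1α against untreated 0 of 6 differed by limma (2 at an unadjusted p under 0.05), where 4.82% of all did. Without replicate 1 of untreated in batch 1, or without any single retinoic acid array, 1 of 6 differed against untreated in place of 2. With arrays scaled to the same median, or normalized by quantiles within each batch, 3 of 6 did. Cyp26a1 probe ILMN_1241085 had effects over untreated of 2.44 in batch 1 but 3.97 in batch 2 (difference 1.53, adjusted p = 0.00224, limma). Stra6 probe ILMN_2753792 had effects of 1.29 and 2.14 (difference 0.86, adjusted p = 0.0225). For Cyp26a1 probe ILMN_2691295 the effects over untreated were 4.48 and 5.08 and their difference did not pass (0.60, adjusted p = 0.159). For Cyp26b1 the order of the batches depends on the scaling, as given above, and the test of their difference did not pass (adjusted p = 0.998). As ILMN_1241085 and ILMN_2753792 were at background untreated, their differences over untreated lie mainly in the retinoic acid level itself. Against IL-1α, the difference of ILMN_2691295 also held a shift of undetected levels. Its means in batch 1 and batch 2 were 4.97 and 4.57 with IL-1α, beside 9.10 and 9.67 with retinoic acid.

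The other genes of the pathway were taken from a list of 49 genes in 5 groups, with 79 probes on the array, of which 31 probes of 26 genes were kept. With retinoic acid 11 of these probes rose and 9 fell, with IL-1α 8 rose and 8 fell, and against IL-1α retinoic acid was higher for 8 and lower for 4. The shares called in each direction over all probes are those given above. Their median log2 fold change was 0.03 for retinoic acid and -0.05 for IL-1α against untreated, close to that of all probes.

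Among the receptors, with 6 of 10 probes kept, retinoic acid raised 3 probes and lowered 1. Rarb, the retinoic acid receptor that is itself a known target of retinoic acid, read 4.74 ± 0.14 untreated, detected on 1 of 4 arrays. With retinoic acid it read 7.66 ± 1.36 (SD, n = 4), a rise of 2.92 (adjusted p = 7.60e-05, limma). This probe passed the filter mainly through the retinoic acid arrays, so the p-value describes the separation and the size rests on levels near background. The other Rarb probe, ILMN_1246864, failed the filter and was detected on 2 of 4 retinoic acid arrays only. Rxra, a shared partner receptor, fell by 0.57 on the log2 scale (adjusted p = 0.0372) and 2 of the 3 Rxrb probes rose by 0.40 and 0.48.

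The enzymes of retinol and retinal oxidation went both ways, with 4 of 13 kept probes higher and 5 lower with retinoic acid. The dehydrogenases Dhrs9 (-1.70, adjusted p = 7.59e-06, limma) and Rdh5 (-1.04, adjusted p = 2.12e-05) fell, as did Aldh1a3 (-0.84, adjusted p = 0.00531), which makes retinoic acid from retinaldehyde, though it was detected on 2 of 4 arrays in each group. Rdh9 (1.11, adjusted p = 1.17e-05) and both Dhrs4 probes (0.74 and 0.71) rose. Untreated, Rdh9 was detected on 1 of 4 arrays, so the size of its rise rests on levels near background. With IL-1α, 3 of these 13 probes rose and 4 fell, Adh1 the most (-1.35, adjusted p = 0.000779). Rdh5 changed in opposite directions, with 0.49 for IL-1α (adjusted p = 0.00841).

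Of the turnover enzymes, the lipase gene Lpl fell in both treatments (-0.71 with retinoic acid, -1.82 with IL-1α) and Dgat1, whose enzyme can esterify retinol, rose in both (0.57 and 0.77). Of other genes known to answer to retinoic acid, 2 of 7 kept probes rose and 2 fell with it. Tgm2, a transglutaminase, rose by 1.46 with retinoic acid and by 1.17 with IL-1α, whereas Plat, tissue plasminogen activator, rose by 0.96 with retinoic acid and gave -0.85 with IL-1α (adjusted p = 0.00342, limma). Rarres1 fell by 2.67 on the log2 scale with retinoic acid (adjusted p = 2.73e-07, limma), although it is named for a response to retinoids, and of the Rarres2 probes ILMN_2596655 fell by 1.45 while ILMN_2588295 gave -0.44 (adjusted p = 0.0604).

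**Figure D5:**
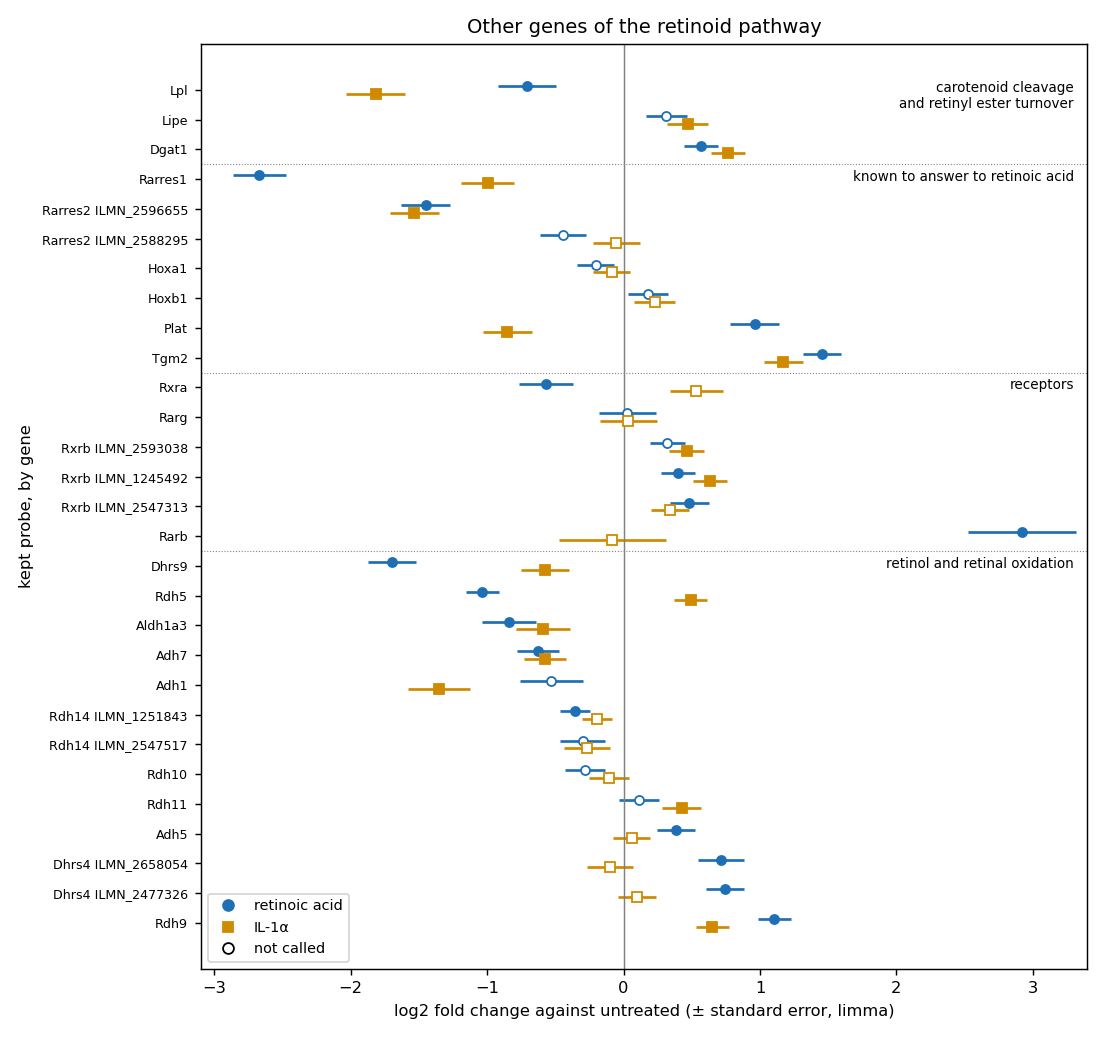
Log2 fold change against untreated (horizontal axis, with the standard error from limma) of 29 of the 31 kept probes of other retinoid pathway genes, in 4 of the 5 groups, for retinoic acid (circles) and IL-1α (squares), filled where the adjusted p was under 0.05. Rarb lies farthest to the right at 2.92 and Rarres1 farthest to the left at -2.67, both with retinoic acid.

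The kept probes whose pattern was most like each member were found by the root mean square difference over the 12 arrays after each probe was centred within its batch, on the log2 scale. Nearest to Cyp26a1 probe ILMN_1241085 were Ccl24 (0.17), Rarb (0.30) and Tead2 (0.30), and to its other probe Gdpd5 (0.28), Igfbp2 (0.40) and B230312L03Rik (0.41). Cyp26b1 was nearest to B230312L03Rik (0.31), Asb2 (0.32) and Gdpd5 (0.33), so that B230312L03Rik and Gdpd5 stood near both breakdown enzymes. Dhrs3 was nearest to Cryba4 (0.11), Nrcam (0.12) and 1110018N20Rik (0.13), and Stra6 to Aqp1 (0.11), Pacsin1 (0.11) and Plekha6 (0.13). Rbp4 was nearest to A230065H16Rik (0.20), Sp7 (0.22) and 1700127F24Rik (0.26).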

How the data were processed

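RNA of 12 explant samples was hybridised to Illumina bead arrays. The values the authors deposited are linear probe intensities, neither background-corrected nor normalized, each beside a detection score headed as a p-value. The score rises with intensity, so 1 minus it served as the detection p. In limma 3.58.1 (R 4.3.3), neqc corrected background, normalized by quantiles and added an offset of 16 before log2. Of 46632 probes, the 18200 detected (p under 0.05) on 4 or more arrays entered the tests.

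The model of all 12 arrays had terms for treatment and for the 4 combinations of batch and replicate, as the methods of the study describe. A further model crossed treatment with batch. Benjamini-Hochberg adjustment ran over all kept probes. Permutation tests were two-sided and exact. Functions were tested on simulated data. The number of arrays limits the precision, and 0 columns of values lacked a sample. The members, the pathway and marker lists and the rule for named genes were chosen with earlier results of these data known. Alternatives covered background, normalization, offset, filter, the factor and single arrays left out. The arrays of each batch alone were added after the data were seen. A single gene of the pathway lists is counted but not reported here.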

Additional observations from a re-analysis of the deposited data

Results flagged for a closer look

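For 1 undetected Lrat probe, ILMN_1234444, replicate 2 of IL-1α in batch 2 read 4.78 on the log2 scale, apart from the other 3 arrays of its group at 4.73 to 4.74. It was 1 of 33 probe groups examined, where chance alone sets about 1 in 20 apart, and all these values are below detection.

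The retinoic acid effect differed between batches by the test of treatment by batch in limma for 3 probes. For Cyp26a1 probe ILMN_1241085 the difference was 1.53 against untreated (adjusted p = 0.00224) and 1.46 against IL-1α (adjusted p = 0.00176), with the larger effect in batch 2. For Cyp26a1 probe ILMN_2691295 it was 0.96 against IL-1α (adjusted p = 0.00861), from 4.13 in batch 1 to 5.09 in batch 2. Part of this last difference came from undetected IL-1α levels. For Stra6 probe ILMN_2753792 it was 0.86 against untreated (adjusted p = 0.0225) and 0.79 against IL-1α (adjusted p = 0.0179). Untreated and IL-1α arrays did not detect these probes, and the part of line and batch cannot be told apart.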

How the results depend on the processing

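Over all alternatives, 323 single-probe values kept their direction and side of the threshold, 4 lost a call, 3 gained one and 1 reversed, which was Rbp4 for retinoic acid against IL-1α on batch 1 arrays alone (0.0192, adjusted p = 0.967, limma). The retinoic acid rise of Cyp26b1 over untreated ran from 3.82 to 4.02. Ranges were wider for Cyp26a1, with 2.16 to 3.97 (ILMN_1241085) and 3.59 to 5.08 (ILMN_2691295). They were also wider for Dhrs3 (1.11 to 2.00), Stra6 (0.95 to 2.14) and Rbp4 (-2.02 to -1.39). Detection on all 12 arrays kept Cyp26b1 as the only member probe, so that 1 was called in each comparison, 7 pathway probes differed between retinoic acid and IL-1α arrays, and 0 members differed between batches by limma (0 at an unadjusted p under 0.05). The batch difference was called for 1 probe without background correction and 1 with a detection p under 0.01, a filter that did not keep Stra6. With arrays scaled to the same median, or normalized by quantiles within each batch, it was called for 3 probes. It ranged from 1 to 2 when single arrays were left out, with 1 without replicate 1 of untreated in batch 1 or without any single one of the 4 retinoic acid arrays. With no replicate block and treatment only, pathway counts were 8 for retinoic acid and 6 for IL-1α against untreated and 5 between them, and limma called 0 members for IL-1α (0 at an unadjusted p under 0.05). With a term for batch only, limma called 2 members for IL-1α. Batch 2 arrays alone gave 1 member and 8 pathway probes for IL-1α. Deviations of arrays that share a number within a batch correlated between -0.11 and 0.39 across probes, not always above 0.1. With 2 arrays per treatment and batch, each correlation rests on a single independent deviation per group, so these values cannot settle pairing. Levels near background limit what Crabp1, Crabp2, Lrat and the untreated levels of Cyp26a1, Dhrs3 and Stra6 can show. The cause of these changes was not tested.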

Other observations

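The motif found in the promoter of Cyp26a1, hexamers in direct repeat with a gap of 5 bases, was looked up in the other genes whose 300-base RefSeq promoter holds it, a set chosen after the values of Cyp26a1 were seen. Of 31 such genes, 8 were on the array with 13 probes, and 5 probes of 4 genes were kept. With retinoic acid 4 of the 5 were higher than untreated, where 18.2% of all kept probes were, and 2 of these are the Cyp26a1 probes. The others were Rarb (2.92, adjusted p = 7.60e-05, limma) and Ppbp, which encodes a platelet chemokine (2.20, adjusted p = 7.74e-06). Blvrb, a biliverdin reductase gene, gave 0.03 (adjusted p = 0.88). Probes that passed the filter only where they were high had to differ, so the count is a description.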
